A study of Mus musculus with 6 samples.

Results

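The mouse genes with a symbol beginning in Kcn encode potassium channels, and 46 of the 99 such genes annotated in GENCODE M21 were among the 13843 genes measured here. Members were found by symbol after the Ensembl identifiers of the deposited table had been matched to names. They comprise 15 pore-forming subunits of voltage-gated channels (Kcna to Kcnh and Kcnq), 3 modifier subunits of voltage-gated channels (Kcnf, Kcng), 10 inward rectifiers (Kcnj), 4 tandem-pore channels (Kcnk), 4 calcium- or sodium-activated channels (Kcnn, Kcnt) and 10 regulatory subunits (Kcnab, Kcne, Kcnip, Kcnmb). The other 53, among them Kcnma1, Kcnip2, Kcnk2, Kcnn3 and the antisense transcript Kcnq1ot1, were not analysed here. Every gene in the table reached a value of 1 in at least 3 libraries, so a member with a very low level could not be among the 46.

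The RNA came from ventricles of 6 single mouse embryos at E12.5 (embryonic day) on a C57BL/6 background, with the atria and the valve region removed. All embryos carried a pair of floxed Vhl alleles. The 3 controls were Vhl(flox/flox) / Nkx2.5(+/+), and the 3 embryos labelled knockout were Vhl(flox/flox) / Nkx2.5(Cre/+). Cre recombinase is driven there from the Nkx2-5 gene, which is active in heart muscle progenitors, so cells that never made Nkx2-5 keep Vhl, and the Vhl deletion and the loss of 1 Nkx2-5 allele to Cre cannot be told apart in this design. Controls 1 and 2 were littermates of knockouts 1 and 2 in litters 1 and 2, control 3 came from litter 3 and the third embryo labelled knockout from litter 4. Values are given as deposited, which is reads divided by 1 factor per library, so that the values of a library sum to 987131 to 1017772.

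Potassium channels let potassium ions leave the cell, which repolarizes heart muscle after each beat and holds the membrane at its resting potential between beats. In heart muscle, voltage-gated channels carry the transient outward current and the rapid and slow delayed rectifier currents. Inward rectifiers set the resting potential and answer to acetylcholine or to the energy state of the cell, tandem-pore channels give a background leak, and regulatory subunits alter the gating or traffic of the pores.

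The libraries held 9067805 to 12592902 reads, of which 5579 to 6924 per library fell on the 46 potassium channel genes. Vhl, the targeted gene, stood at 33.7, 36.3 and 38.6 in the controls and at 11.1 and 10.3 in knockouts 1 and 2, but at 34.5 in the third embryo labelled knockout. That library goes against its label, is called labelled knockout 3 here and is shown apart, and the comparison below sets knockouts 1 and 2 against the 3 controls. All 7 ventricular cardiomyocyte markers were measured, with Myh7 at 10165 to 13327 in the controls. Of the atrial markers, Myl4 was at 2027 to 2236 and Myl7 at 606 to 737 in the controls, although the atria had been removed. The other measured atrial markers were low in the controls, Nr2f1 at 2.88 to 13.0 and Nr2f2 at 28.6 to 39.1, and Sln was not measured. Myl2, on the ventricular list, was at 5058 to 5611 in the controls, above both Myl4 and Myl7. The markers thus showed heart muscle RNA, and Myl4 and Myl7 did not by themselves settle the chamber. Of 7 neuronal and neural crest markers, 3 were measured, with sums of 13.1 to 19.0 in the controls.

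Per kilobase of exon, a few genes held most of the potassium channel RNA of the control ventricle. Kcnh2, the pore of the rapid delayed rectifier, had the highest level per kilobase, 22.1 ± 2.85 (SD, n = 3), followed by Kcnk3, an acid-sensitive leak channel, at 20.5 ± 5.32. Next were Kcnj5, a subunit of the acetylcholine-gated channel, at 16.6 ± 2.26 and Kcng2, a modifier that is silent on its own, at 16.4 ± 2.44 per kilobase. The ranges of Kcnh2 and Kcnk3 overlapped among the 3 controls, as did those of Kcnk3, Kcnj5 and Kcng2, so the order among neighbours in these 4 was not resolved. These 4 genes made up 51.7% of the summed level per kilobase of all 46 members, and the top 10 made up 76.5%. Kcne1, the partner of Kcnq1 in the slow delayed rectifier, stood at 10.97 ± 0.491 per kilobase and Kcnq1 at 4.01 ± 0.663. Kcne1l, another small regulatory subunit of that family, was at 10.0 ± 1.23. The inward rectifier Kcnj3, which pairs with Kcnj5, was at 4.04 ± 0.684 per kilobase, and Kcnj2, a main carrier of the resting inward rectifier current, at 3.20 ± 0.352. The pores of the fast transient outward current were lower, Kcnd2 at 1.67 ± 0.228 and Kcnd3 at 1.07 ± 0.243. The lowest member was Kcnj15 at 0.157 ± 0.0668 per kilobase. Not divided by length, 40 of the 46 members had a control mean below the median of all genes measured, 27.1. In the count of reads, 20 of the 46 had fewer than 20 reads in at least 1 of the 5 libraries compared, so that counting error alone is large for them.

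**Figure D1:**
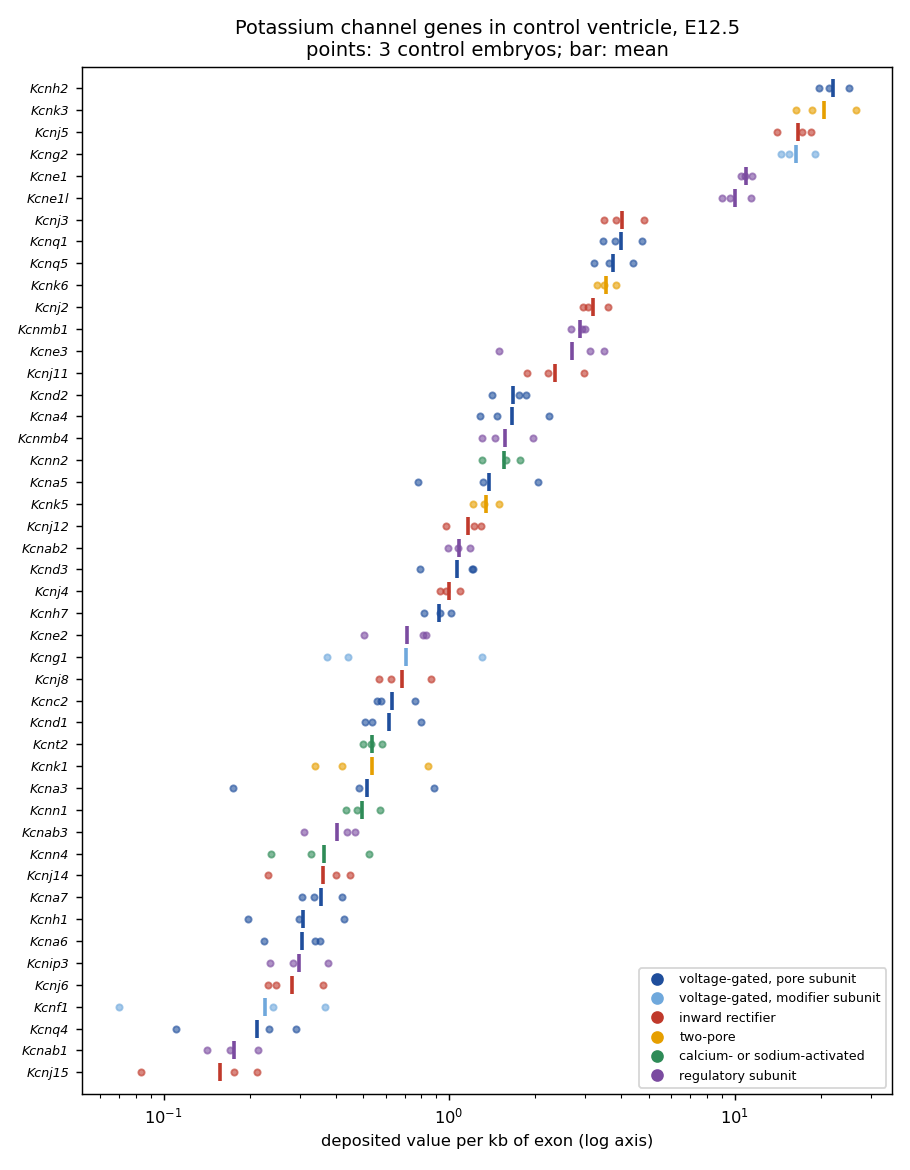
Level of each potassium channel gene in the 3 control ventricles, as the deposited value per kilobase of exon on a log axis, with 1 point per embryo and a bar at the mean, coloured by class. Kcnh2, Kcnk3, Kcnj5 and Kcng2 lie at the top, between 16.4 and 22.1, and Kcnj15 at the bottom at 0.157.

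Between knockouts 1 and 2 and the 3 controls, 1 of the 46 genes rose and 1 fell past an adjusted p of 0.05 (limma over all genes, Benjamini-Hochberg), and 44 did not pass. Kcnmb1, a regulatory subunit of the large calcium-activated channel, rose, and Kcnd3, a pore of the transient outward current, fell. Over all genes 3.01% rose and 1.24% fell, together 4.25%, beside 4.35% of the potassium channel genes, so in this fit the share called was near that of the whole table. Most members have low levels, unlike the table as a whole. Of the 3723 genes with a control mean of 1.76 to 13.5, a range set from the members' own levels, 3.65% passed. In that range 2 of 22 members did. The median log2 difference of the 46 was 0.01, beside -0.01 over all genes, with 24 members above 0 and 22 below. With edgeR on the recovered reads the same 2 genes passed, where 4.12% of all genes did (2.94% higher, 1.18% lower). With DESeq2, 7 of the 41 members that received an adjusted p passed, where 6.09% of all genes did (4.05% higher, 2.03% lower), namely Kcnmb1, Kcne3 and Kcnf1 as higher and Kcnd3, Kcnd2, Kcnj3 and Kcnk3 as lower. With litter as a block in litters 1 and 2 alone, 4 rose and 3 fell, where 8.13% of all genes passed (4.92% higher, 3.21% lower), namely Kcnmb1, Kcne3, Kcnf1 and Kcnk6, and Kcnd3, Kcnd2 and Kcnk3. Only 1 degree of freedom remains in that littermate comparison, which leans on the spread borrowed from all genes and uses the same knockouts. With labelled knockout 3 kept as a knockout, 0 members and 0.00% of all genes passed in limma, and 3 of 46 members had an unadjusted p under 0.05, beside 859 of all 13843 genes. Without that library, 14 of 46 members (30.4%) had an unadjusted p under 0.05, beside 17.8% of all genes. Values of knockouts 1 and 2 lay outside the control range on one side for 21 members, 9 above and 12 below, which is 45.7% beside 35.1% of all genes. Kcna7 is among the 9, at 0.666 to 0.923 in controls and 2.02 and 1.14 in knockouts 1 and 2, with 1.01 in labelled knockout 3. It reached the value of 1 that all table genes share only in the libraries labelled knockout. Its place above the controls is therefore not independent of its place in the table.

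**Figure D2:**
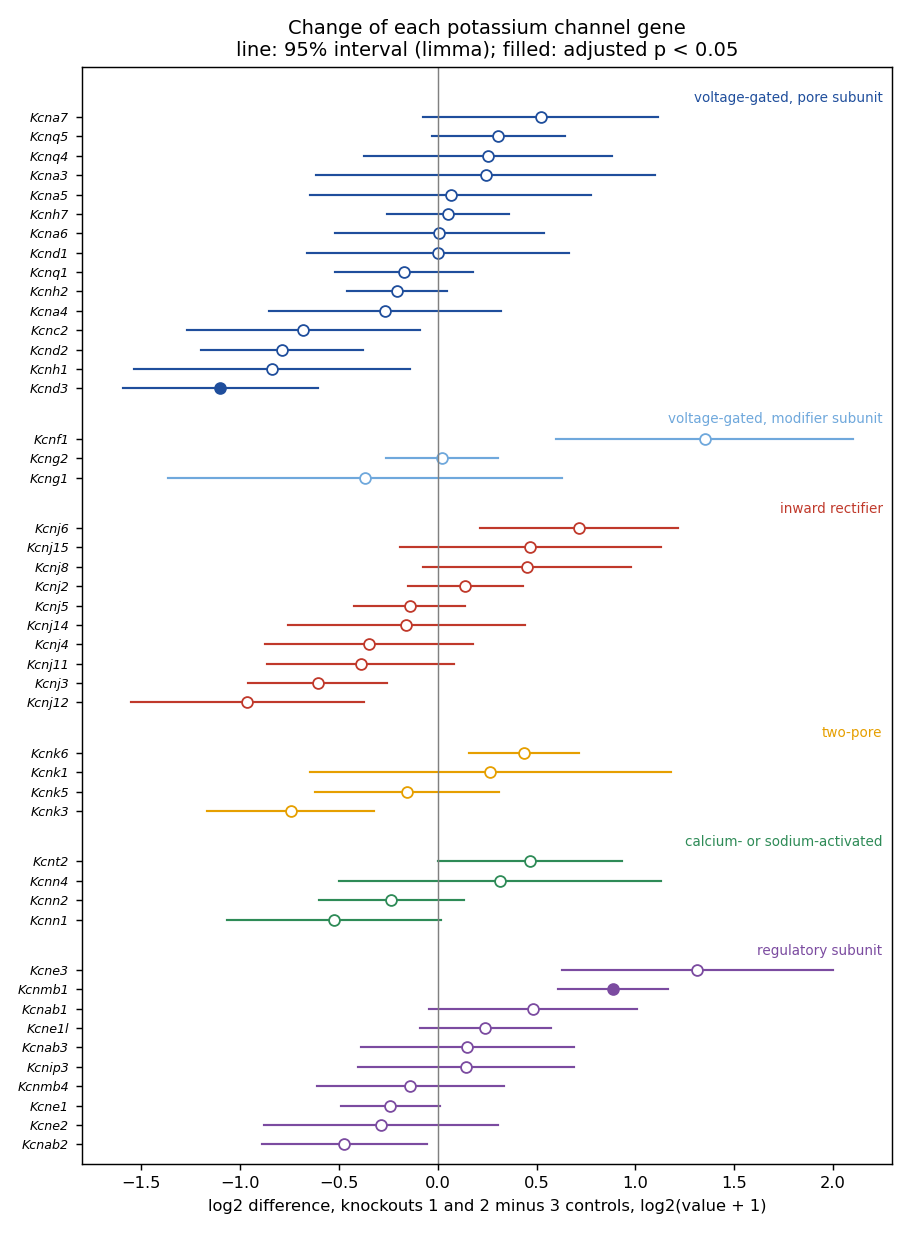
Log2 difference on log2(value + 1), knockouts 1 and 2 minus the 3 controls, for each of the 46 potassium channel genes by class, with its 95% interval from limma, and filled where the adjusted p was under 0.05. Kcnmb1 at 0.89 and Kcnd3 at -1.10 are filled, and the other 44 are open.

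Among the regulatory subunits, 1 of 10 rose, 0 fell and 9 did not pass. Kcnmb1 (ENSMUSG00000020155, chromosome 11, 33963013 to 33973641, GRCm38) encodes a beta subunit that raises the calcium sensitivity of the large-conductance calcium-activated channel and is best known in smooth muscle. The pore gene of that channel, Kcnma1, was not among the genes measured, so its level cannot be given. Values of Kcnmb1 were 12.2, 12.6 and 11.2 in controls 1 to 3, 21.8 and 24.3 in knockouts 1 and 2, with 11.2 in labelled knockout 3. Both knockouts stood well above the controls, which lay close together, and labelled knockout 3 stood just below them. The ratio of means was 1.92 and the log2 difference 0.89 ± 0.12 (SE; limma adjusted p = 0.00739; littermates with litter as a block, 0.00209). Without knockout 1 the adjusted p was 0.0516 and without knockout 2 it was 0.0669, with log2 differences of 0.96 and 0.81. Of the 6 fixed smooth muscle and pericyte markers, Acta2 and Tagln also rose and the other 4 did not pass, although Pdgfrb rose between littermates (limma adjusted p = 0.0189). The call of Acta2 was lost without control 2 (limma adjusted p = 0.0665), knockout 1 (0.103) or knockout 2 (0.0682), and that of Tagln without control 3 (0.0741), knockout 1 (0.159) or knockout 2 (0.1801). The summed level of the 6 was 1089 to 1422 in controls, 2223 and 2270 in knockouts 1 and 2, with 1179 in labelled knockout 3. Most of that sum came from Acta2 and Tagln, so it mainly repeats their rise. Acta2 was at 802 to 1023 in controls and at 1569 and 1515 in knockouts 1 and 2, with Tagln at 157 to 323 and 523 and 601. Myh11, a defining smooth muscle marker, was at 0.666 to 3.88 in controls and 1.37 and 1.67 in knockouts 1 and 2, with Rgs5, a pericyte marker, at 0.777 to 1.85 and 1.37 and 1.14. The part of such cells in the rise of Kcnmb1 was not tested. In RNA from whole ventricles, a change in the number of cells of a type and a change in RNA per cell cannot be told apart.

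Kcne3 encodes a small single-pass subunit that can hold Kcnq1 channels open. It stood at 2.66, 5.54 and 6.19 in controls, at 11.2 and 14.6 in knockouts 1 and 2, with 4.12 in labelled knockout 3. The groups did not overlap, but the controls spread widely, from 24 to 66 reads. Exons of Kcne3 overlap those of Gm34821 on the other strand, whose reads cannot be told apart from those of Kcne3. The log2 difference of Kcne3 was 1.31 ± 0.30, with a 95% interval of 0.63 to 2.00, and missed the threshold (limma adjusted p = 0.0528). It passed between littermates (log2 1.499 ± 0.19, limma adjusted p = 0.00035), in DESeq2 (adjusted p = 0.00341) and in limma without control 1 (adjusted p = 0.0391). It did not pass in edgeR (adjusted p = 0.0566), nor in limma without control 2 (0.108), control 3 (0.0508), knockout 1 (0.162) or knockout 2 (0.226). The other subunits that go with Kcnq1 did not pass: Kcne1 was at 36.9, 33.8 and 35.0 in controls and 32.7 and 27.0 in knockouts 1 and 2 (log2 -0.24 ± 0.11, limma adjusted p = 0.301). Kcne1l was at 14.0, 14.9 and 17.6 in controls and at 20.1 and 16.8 in knockouts 1 and 2, which overlaps. Kcnab2, a cytoplasmic beta subunit of Kcna channels whose gene lies in a span shared with Nphp4, had a control mean of 6.05 ± 0.537 and values of 3.56 and 4.64, below every control (log2 -0.47 ± 0.18, limma adjusted p = 0.225). Kcnab1, a relative of it, had 1.22 to 1.85 in controls and 2.83 and 2.19 in knockouts 1 and 2, with also did not pass (limma adjusted p = 0.321).

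Promoter windows of the genes that passed, or missed the threshold narrowly, are shown because HIF, the factor that Vhl restrains, binds a short core motif in promoters and enhancers. Each window runs from 250 bases before to 50 after a start annotated by RefSeq on GRCm38.p6 and is written 5′ to 3′ on the gene's own strand, with every ACGTG or GCGTG, on either strand, in capitals. Kcnmb1 is at chr11:33962763-33963062, Kcne3 (the first of its annotated starts) at chr7:100176420-100176719, Kcnd3 at chr3:105451640-105451939 and Kcnd2 at chr6:21215096-21215395, all on the plus strand.
Kcnmb1: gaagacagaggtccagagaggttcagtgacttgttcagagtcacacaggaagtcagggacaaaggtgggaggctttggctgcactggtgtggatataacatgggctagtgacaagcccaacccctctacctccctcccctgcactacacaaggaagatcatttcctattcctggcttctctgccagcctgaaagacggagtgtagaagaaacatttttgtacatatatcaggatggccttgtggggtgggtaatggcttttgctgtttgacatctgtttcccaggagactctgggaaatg
Kcne3: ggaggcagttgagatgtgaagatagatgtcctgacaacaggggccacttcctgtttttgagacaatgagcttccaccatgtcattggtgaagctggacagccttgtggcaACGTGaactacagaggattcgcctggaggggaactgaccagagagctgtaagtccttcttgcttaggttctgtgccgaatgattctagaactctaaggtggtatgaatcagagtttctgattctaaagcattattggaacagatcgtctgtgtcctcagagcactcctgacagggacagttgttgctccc
Kcnd3: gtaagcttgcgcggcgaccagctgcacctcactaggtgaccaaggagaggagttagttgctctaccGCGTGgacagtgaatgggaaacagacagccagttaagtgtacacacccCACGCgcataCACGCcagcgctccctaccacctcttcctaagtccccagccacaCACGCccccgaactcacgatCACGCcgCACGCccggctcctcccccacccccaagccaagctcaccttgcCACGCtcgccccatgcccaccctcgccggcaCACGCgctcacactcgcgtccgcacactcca
Kcnd2: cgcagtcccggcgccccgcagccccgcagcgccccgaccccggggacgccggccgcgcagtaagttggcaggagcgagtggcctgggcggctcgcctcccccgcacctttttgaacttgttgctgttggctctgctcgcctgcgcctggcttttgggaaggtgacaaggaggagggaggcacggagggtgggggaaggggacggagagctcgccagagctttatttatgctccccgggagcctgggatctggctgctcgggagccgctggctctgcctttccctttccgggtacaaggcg
The Kcnd3 window held 8 matches, 7 of them on the other strand, the Kcne3 window 1, and those of Kcnmb1 and Kcnd2 held 0. RefSeq windows were matched for 34 of the 46 members, 48 windows in all, and 21 of these (43.8%) held a match, beside 43.8% of all 32851 windows in the table and 61.2% of the 13329 windows of measured genes. A match is a description of the letters and not a bound site, and windows of measured genes hold more CG pairs (median 20) than those of the potassium channel genes (median 9).

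Among the voltage-gated pore subunits, 1 of 15 fell, 0 rose and 14 did not pass. Kcnd3 (ENSMUSG00000040896, chromosome 3, 105452330 to 105674002) and Kcnd2 form the pores of the fast transient outward current, which shapes the early repolarization of the ventricle. Kcnd3 stood at 11.5, 7.55 and 11.6 in controls 1 to 3, at 3.80 and 4.56 in knockouts 1 and 2, with 10.5 in labelled knockout 3. Control 2 was the lowest control and still lay above both knockouts, and labelled knockout 3 lay inside the control range. The control mean was 2.45-fold the mean of knockouts 1 and 2, and the log2 difference was -1.10 ± 0.21 (limma adjusted p = 0.0317; littermates, 0.013). The call rested on single libraries: the adjusted p was 0.0831 without control 1, 0.0898 without control 3, 0.182 without knockout 1 and 0.0974 without knockout 2, while over the 5 libraries left out in turn the log2 difference stayed between -1.29 and -0.99. The exons of Kcnd3 overlap those of the antisense gene Kcnd3os, and the libraries did not mark strand, so reads of the pair cannot be told apart.

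Kcnd2 was at 9.54, 7.30 and 9.02 in controls, at 4.12 and 4.99 in knockouts 1 and 2, with 9.98 in labelled knockout 3. Both knockouts lay below every control, as for Kcnd3. The log2 difference of Kcnd2, -0.79 ± 0.18, missed the threshold (limma adjusted p = 0.0523) and passed between littermates (adjusted p = 0.0413) and in DESeq2 (adjusted p = 0.0461). In edgeR its adjusted p was 0.0724, and leaving out each of the 5 libraries in limma gave 0.0872 to 0.2498. Kcnd1, the third pore gene of that family, was at 4.22, 2.69 and 2.83 in controls and 4.53 and 2.19 in knockouts 1 and 2, with groups that overlapped and a 95% interval of the log2 difference from -0.66 to 0.67.

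Dpp6, which has no Kcn symbol, encodes a membrane protein that binds Kcnd channels and speeds up their gating, and it moved the opposite way. Its values were 1.22, 1.76 and 2.62 in controls, 55.8 and 44.95 in knockouts 1 and 2, with 2.11 in labelled knockout 3. The mean of knockouts 1 and 2 was 27.0-fold that of the controls, which rested on 11 to 25 reads each, and the log2 difference was 4.18 ± 0.23 (limma adjusted p = 0.000129). In both knockouts the level of Dpp6 was thus far above the range of the other 4 libraries, while that of Kcnd3 was below it.

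**Figure D3:**
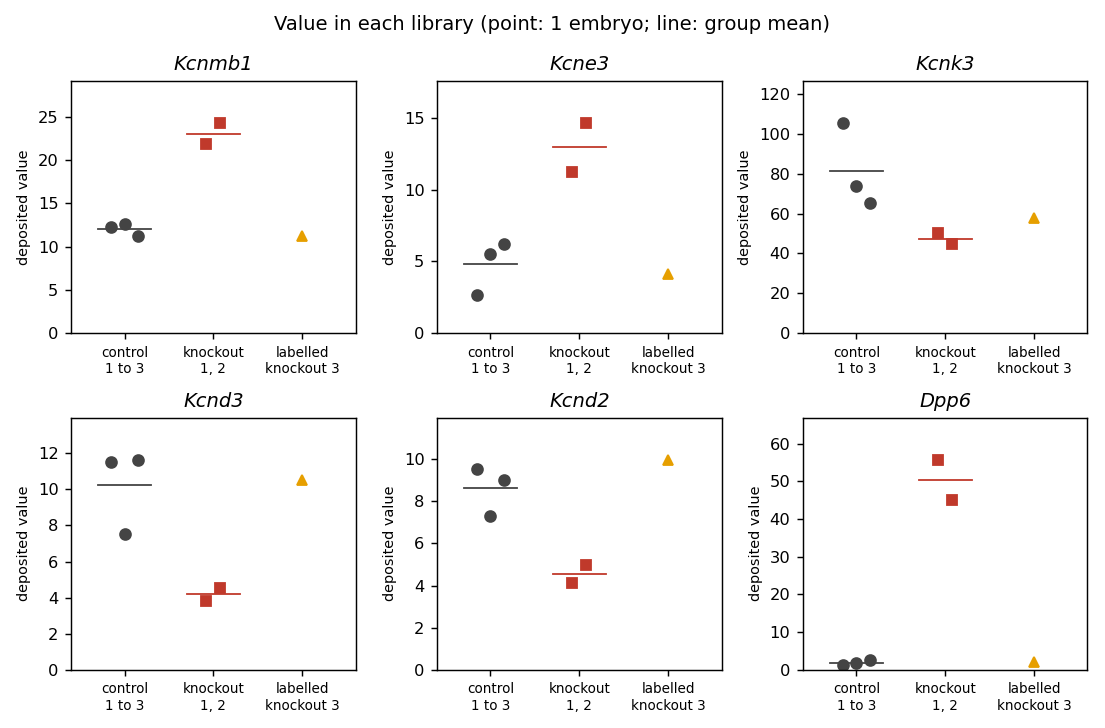
Deposited value in each library for Kcnmb1, Kcne3, Kcnk3, Kcnd3, Kcnd2 and Dpp6, with 1 point per embryo, a line at the group mean and labelled knockout 3 apart. Knockouts 1 and 2 lie outside the control range in all 6 panels, and labelled knockout 3 lies outside it for Kcnmb1, Kcnk3 and Kcnd2.

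The pores of the delayed rectifiers did not pass. Kcnh2, whose mean level was the highest in the controls, was at 122, 104 and 95.3 in controls, at 88.4 and 96.1 in knockouts 1 and 2, with 110 in labelled knockout 3. The groups overlapped at the value of control 3, and the 95% interval of the log2 difference ran from -0.46 to 0.05. Kcnq1, pore of the slow delayed rectifier, was at 19.4, 15.6 and 14.2 in controls and at 14.2 and 14.5 in knockouts 1 and 2 (interval -0.52 to 0.18). Reads of its antisense transcript Kcnq1ot1, whose exons overlap those of Kcnq1, cannot be told apart from its own. Kcnq5, a pore of slow subthreshold currents best known in neurons, was at 33.9, 28.0 and 24.6 in controls and 38.7 and 32.8 in knockouts 1 and 2, again with overlap (interval -0.03 to 0.64). Kcna5, which carries an ultrarapid delayed rectifier, was at 2.22 to 5.87 in controls and 4.04 and 3.86 in knockouts 1 and 2, with Kcna4, pore of the slow transient outward current, at 6.19 to 10.8 and 5.17 and 7.71. Kcnh7, a relative of Kcnh2, was at 14.1, 12.4 and 15.4 in controls and 14.3 and 14.6 in knockouts 1 and 2, inside the control range, although Gca, whose exons overlap it on the other strand, fell from 27.1, 23.1 and 29.3 to 13.9 and 15.1 (limma adjusted p = 0.0135). Neither Kcna5 nor Kcna4 separated the groups, and Kcna4 was highest, at 16.8, in labelled knockout 3. Kcnc2 and Kcnh1, pores better known from neurons, lay below every control in knockouts 1 and 2 but did not pass (limma adjusted p = 0.214 and 0.199). The modifier Kcnf1, silent on its own, was at 0.333, 1.76 and 1.15 in controls and at 4.53 and 3.68 in knockouts 1 and 2, on 3 to 21 reads in the controls (log2 1.35 ± 0.32, limma adjusted p = 0.0659; edgeR, 0.0976; littermates, 0.014). Kcng2, the most abundant modifier, was at 57.2, 46.5 and 43.3 in controls and 48.2 and 50.7 in knockouts 1 and 2, inside the control range, with an interval of -0.26 to 0.30. Kcng1 varied between litters more than between groups, with 5.87 in control 2 and 2.80 in knockout 2, beside 2.00 and 1.29 in litter 1.

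No inward rectifier passed: 0 of 10 rose or fell in limma, 3 had an unadjusted p under 0.05, and edgeR called 0 and DESeq2 1. The median log2 difference of the class was -0.15, with 6 of 10 below 0. Kcnj3 and Kcnj5 together form the channel that acetylcholine opens to slow the heart. Kcnj3 was at 18.2, 20.0 and 25.1 in controls, at 12.8 and 14.0 in knockouts 1 and 2, with 22.0 in labelled knockout 3. Both knockouts were below every control, with a log2 difference of -0.48 within each litter, and the log2 difference of -0.61 ± 0.15 missed the threshold in limma (adjusted p = 0.0748; littermates, 0.0543) and passed in DESeq2 (adjusted p = 0.0396). Kcnj5 was at 81.0, 66.2 and 86.7 in controls and 74.5 and 66.2 in knockouts 1 and 2, so that its groups overlapped (interval -0.42 to 0.14). Kcnj2 and Kcnj12 carry the strong inward rectifier current that sets the resting potential. Kcnj2 was at 16.6, 16.0 and 19.6 in controls and 18.8 and 19.7 in knockouts 1 and 2 (interval -0.15 to 0.43). Kcnj12 was at 3.55, 2.69 and 3.36 in controls and 0.727 and 1.66 in knockouts 1 and 2, from 32 reads in each control to 9 and 19 reads (log2 -0.96 ± 0.25, limma adjusted p = 0.0894). Kcnj11 and Kcnj8 are the pores of channels that ATP closes. Kcnj11 was at 6.88 to 10.9 in controls and at 5.74 and 6.83 in knockouts 1 and 2, with Kcnj8 at 1.44 to 2.20 and 2.42 and 3.07. The former lay below and the latter above every control, and neither passed (limma adjusted p = 0.381 and 0.356). Kcnj6, a relative of Kcnj3, was at 1.78 to 2.77 in controls and 4.28 and 3.94 in knockouts 1 and 2 (limma adjusted p = 0.131), but also at 3.39 in labelled knockout 3.

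Among the 4 tandem-pore channels 0 passed in limma or edgeR, 2 had an unadjusted p under 0.05, and DESeq2 called 1 as lower. Kcnk3 (ENSMUSG00000049265, chromosome 5, 30588170 to 30625271) gives a leak current that acid shuts. It stood at 105.5, 74.0 and 65.3 in controls 1 to 3, at 50.03 and 44.8 in knockouts 1 and 2, with 57.8 in labelled knockout 3. Every library with the knockout label lay below every control, and control 1 stood well above the other two controls. The log2 difference was -0.74 ± 0.18 (limma adjusted p = 0.0699), and it passed between littermates (-0.89 ± 0.10, adjusted p = 0.000153), in DESeq2 (adjusted p = 0.00286) and in limma without control 1 (-0.55, adjusted p = 0.0463) or without control 3 (-0.89, adjusted p = 0.0416). It did not pass in edgeR (adjusted p = 0.0756), nor in limma without control 2 (0.154), knockout 1 (0.208) or knockout 2 (0.246). Exons of Kcnk3 overlap those of Gm9899 on the other strand, whose reads cannot be told apart from its own. Kcnk6, a weak inward rectifier of this class, was at 13.6, 14.5 and 15.9 in controls and at 19.6 and 20.9 in knockouts 1 and 2, above every control. It differed by 0.49 on the log2 scale in each litter and passed in the littermate fit (adjusted p = 0.0451) but not with 5 libraries (limma adjusted p = 0.099). Kcnk3 and Kcnk6 thus lay on opposite sides of the controls. Kcnk5, another leak channel, and Kcnk1 overlapped between groups, at 4.11 to 5.10 and 0.755 to 1.89 in controls. The summed level of the tandem-pore class was 86.7 to 126 in controls and 77.3 and 69.7 in knockouts 1 and 2, most of it from Kcnk3.

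The calcium- and sodium-activated channels gave no call: 0 of 4 passed in limma, edgeR and DESeq2, and 1 had an unadjusted p under 0.05. Kcnn2, a small-conductance channel opened by calcium, was at 13.2, 11.8 and 9.75 in controls and 9.38 and 9.90 in knockouts 1 and 2, with overlap. Kcnn1, its relative, was at 2.00 to 2.62 in controls and at 1.62 and 0.964 in knockouts 1 and 2, below every control on 11 to 26 reads (limma adjusted p = 0.298). Kcnt2, opened by sodium, lay above every control, at 6.63 and 4.56 beside 3.44 to 4.03 (limma adjusted p = 0.278). Labelled knockout 3 lay above the controls for both Kcnn1 and Kcnt2.

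Within litters, the difference had the same sign in litters 1 and 2 for 39 of the 46 genes, 21 lower and 18 higher in both, which is 84.8% beside 64.4% of all genes. These litters share no library. Kcna7, which reached a value of 1 only in the libraries labelled knockout, is among the 18. Litter 1 gave the larger differences for Kcnf1 (2.05 and 0.76 on the log2 scale), Kcnd3 (-1.39 and -0.62), Kcnj12 (-1.40 and -0.47) and Kcnc2 (-1.25 and -0.24). Kcnmb1 (0.79 and 0.90), Kcnk6 (0.49 and 0.49) and Kcnj3 (-0.48 and -0.48) differed by nearly the same amount in both. Labelled knockout 3 lay inside the range of the 3 controls for 26 of 46 members, 56.5% beside 56.1% of all genes. The same held for 15 members in knockout 1 and for 15 in knockout 2, 32.6% each, beside 37.3% and 38.7% of all genes.

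**Figure D4:**
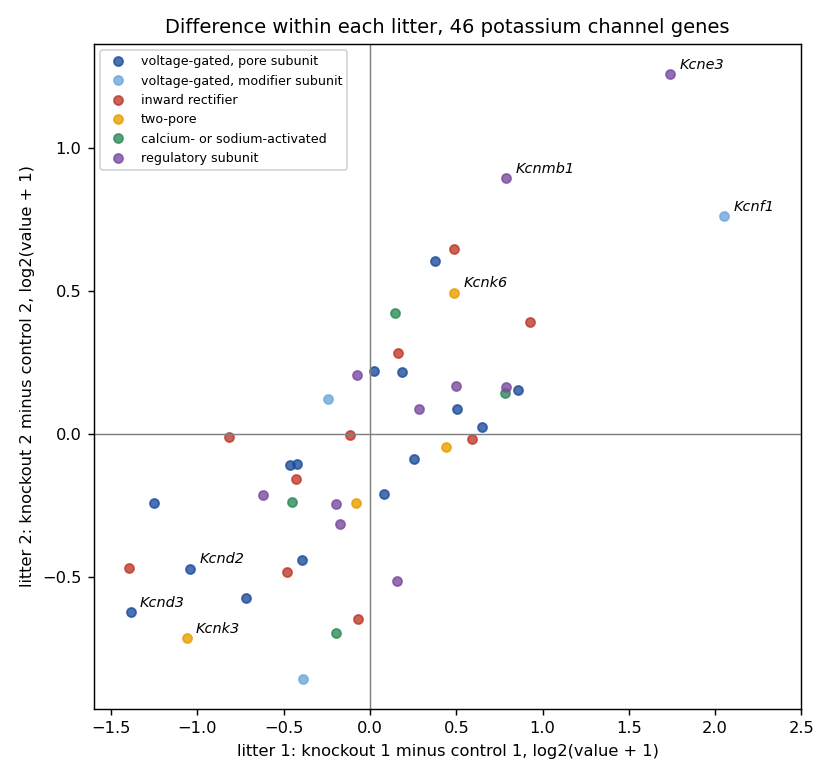
Difference between knockout and control littermates on log2(value + 1), litter 1 on the horizontal and litter 2 on the vertical axis, for the 46 potassium channel genes by class, with the 7 names that passed with litter as a block. Of the 46 points, 18 lie above 0 and 21 below 0 on both axes, with Kcne3 and Kcnf1 farthest out on the upper side.

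Of 38 measured genes of a list of 43 that work with potassium channels without a Kcn symbol, 2 rose, 2 fell and 34 were not called, where 3.01% of all genes rose and 1.24% fell. The median log2 difference of the 38 was -0.10, beside -0.01 over all genes. Besides Dpp6, Fxyd6, a small regulator of the sodium and potassium pump, rose from 15.4, 17.2 and 16.5 in controls to 35.1 and 38.6 (log2 1.12 ± 0.11, limma adjusted p = 0.00124). The pump restores the potassium gradient on which all these channels depend. Rnf207, which encodes a RING finger protein that acts on the Kcnh2 channel, fell from 86.5, 85.0 and 70.8 to 55.9 and 48.9 (log2 -0.61 ± 0.11, limma adjusted p = 0.0234), with 87.9 in labelled knockout 3. That call was lost in limma when any library but control 3 was left out (adjusted p = 0.0633 to 0.125). Abcc9, which encodes the sulphonylurea receptor that joins Kcnj8 and Kcnj11, was at 189 to 219 in controls and 238 and 197 in knockouts 1 and 2 and did not pass. Values of knockouts 1 and 2 lay below every control for 16 of the 38 partners and above for 2, where 17.0% and 18.1% of all genes did so. Of 10 transcription factors in this list 0 passed in limma with 5 libraries, 3 had an unadjusted p under 0.05, and edgeR called 1 and DESeq2 3 as lower. Tbx5 and Etv1, both named for cardiac ion channel control, were below every control at 40.0 and 44.4 beside 54.2 to 62.8, and at 21.7 and 23.8 beside 30.5 to 37.8 (limma adjusted p = 0.0519 and 0.0575). Between littermates both fell (limma adjusted p = 0.0412 and 0.00844). In labelled knockout 3, Tbx5 was at 42.0, below every control as in knockouts 1 and 2, and Etv1 was at 36.1, inside the control range.

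Some markers on the fixed cell type lists moved in knockouts 1 and 2 as well. Of 6 epicardial markers Wt1 and Krt19 rose, and the list summed to 283 to 351 in controls, 682 and 591 in knockouts 1 and 2, with 330 in labelled knockout 3. Most of the rise in that sum came from Krt19, at 35.2 to 49.2 in controls and 268 and 210 in knockouts 1 and 2. Wt1, Tbx18 and Upk3b also lay above every control in knockouts 1 and 2, while Aldh1a2 and Msln overlapped between groups. The call of Wt1 was lost without knockout 1 (limma adjusted p = 0.0782) or knockout 2 (0.0898), and between littermates Upk3b and Tbx18 rose as well (limma adjusted p = 7.63e-05 and 0.0311). Of 6 endothelial and endocardial markers Emcn rose, with sums of 1148 to 1255 in controls and 1364 and 1327 in knockouts 1 and 2. The call of Emcn (limma adjusted p = 0.0404) was lost when any library but control 1 was left out (0.0737 to 0.219). The 7 ventricular cardiomyocyte markers had 0 calls in limma, edgeR and DESeq2 and 0 unadjusted p under 0.05, with sums of 33310 to 40923 in controls and 38378 and 34420 in knockouts 1 and 2. Of 4 measured atrial markers Myl7 rose, from 643, 606 and 737 in controls to 1275 and 1110 (limma adjusted p = 0.00593; without knockout 1, 0.0564). The 3 measured conduction markers had 0 calls in limma, edgeR and DESeq2, with 2 at an unadjusted p under 0.05, at sums of 238 to 284 in controls and 193 and 127 in knockouts 1 and 2. Between littermates Gja5, a gap junction gene counted here as a conduction marker, fell, with log2 differences of -0.56 and -1.02 in litters 1 and 2 (limma adjusted p = 0.000431). Gja5 was at 170 in labelled knockout 3, below every control. The 3 measured neuronal markers had 0 calls in all 3 tools with 1 unadjusted p under 0.05, and the 5 macrophage and 6 erythroid markers had 0 calls and 0 unadjusted p under 0.05, although between littermates the globin gene Hbb-bs fell (limma adjusted p = 7.57e-05). Erythroid sums ranged from 5036 to 11327 in controls and were 5386 and 12173 in knockouts 1 and 2, so erythroid RNA varied widely within both groups. The part of these cells in the potassium channel values was not tested. No measured member lies on chromosome 17, which carries Nkx2-5 and its Cre allele.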

How the data were processed

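Per the submitters' processing notes, the build was GRCm38 and the tools named are RSEM 1.2.3, cutadapt 1.3 and CASAVA 1.8.2. The sources used here do not give the gene filter or the scaling. Each value the authors deposited is a normalized signal per gene, near CPM, whose values were whole multiples of 1 step in 100% of cells (tolerance 0.01 reads), so whole reads were recovered. RSEM can share reads among similar genes, so close relatives are uncertain, and the kit did not mark strand. Besides the members named above for it, Kcng2, Kcnj3, Kcnq5, Kcnn2, Kcnj6 and others also share exon bases with a gene on the other strand. Reads there cannot be told apart. Names given for GENCODE M21 identifiers matched 13675 genes and left 168 unnamed. Since the values are normalized, the count test was kept as an alternative and two-sided limma tests (version 3.58.1, R 4.3.3, trended variance) were fitted to log2(value + 1) of 13843 genes, with 3 controls and knockouts 1 and 2. Because Vhl in the third library labelled knockout went against its label, that library was set apart, which makes the Vhl difference partly circular. Embryos are the replicates. Fold changes on log2(value + 1) understate those of low genes. The functions were tested on simulated data. Alternatives were edgeR 4.0.16, DESeq2 1.42.0, a pseudocount of 0.25, a mean of at least 5, library totals, each library left out, all 6 libraries, and litter as a block. The litters in the labels pair the libraries, and differences between litters 1 and 2 correlated at 0.32 between controls and knockouts over genes, which are not independent replicates. Named genes were members past the threshold with 5 libraries or with litter as a block, the 3 highest of each class and a list of known cardiac channel genes, with partner and marker genes that passed; others are named to describe their class, after their values were seen. The members and lists were chosen with earlier results of these data known. Some genes of the partner list are counted but not reported here by name.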

Additional observations from a re-analysis of the deposited data

How the results depend on the processing

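Depth limits most members: 20 of 46 had under 20 reads in a library, the median half-width of the 95% interval was 0.52 on the log2 scale, and 12 of the 44 members not called had an interval that left out 0. Against 1 potassium channel gene higher and 1 lower, the counts were 0 and 0 with all 6 libraries as labelled, 4 and 3 with litter as a replicate block, 2 and 1 with a mean value of at least 5, and 3 and 4 with DESeq2. Leaving out single libraries gave 0 to 2 higher and 0 to 1 lower; both were 0 without knockout 1 and without knockout 2, where the lone knockout is assumed to vary like the controls, and Kcnk3 was called lower in place of Kcnd3 without control 1 and without control 3, with Kcne3 added as higher without control 1. Both calls held with a pseudocount of 0.25, with library totals and with edgeR. The cause of these moves was not tested, beyond the fewer libraries. Over all genes the counts of 416 and 172 went to 681 and 444 with the replicate block and to 550 and 276 with DESeq2, and ranged from 146 to 297 and from 44 to 90 over the libraries left out. Of the partner genes, 2 higher and 2 lower became 0 and 0 with all 6 libraries and 2 and 7 with the replicate block. The block added calls and removed 0 among the potassium channel genes. No alternative reversed the direction of a named gene past the threshold. Of the 10 highest members per kilobase, 9 were also among the 10 highest by level alone.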
